A study of Homo sapiens with 8 samples.

Results

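Variable distal sites were defined here as FAIRE-seq peaks that lay far from any gene start and were present in some but not all of the 8 peak lists of this study. Peaks of the 8 lists on chromosomes 1 to 22 and X were merged wherever they overlapped by at least 1 bp. A merged region was kept when it had a peak in 2 to 7 lists, was under 2000 bp long and lay more than 50 kb from every transcription start site (TSS) of GENCODE release 44. This gave 1422 sites of 52105 regions, which is 7.01% of the 20278 regions in 2 to 7 lists. The sites were thus selected on measured values, namely on having a peak in some of these same lists, and the number of lists is given as a description only.

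FAIRE-seq sequences the DNA that stays free of protein crosslinks after formaldehyde fixation and phenol extraction, so a peak marks open chromatin. The cells were U2OS, a human osteosarcoma line that maintains its telomeres without telomerase, and the libraries came from 2 wild-type clones (WT_4 and WT_5) and 2 clones lacking ZBTB48 (KO_C5 and KO_D2), a zinc finger protein that binds telomeric repeats and also acts as a transcription factor. Each clone gave 1 untreated library and 1 library after 250 U/ml interferon gamma (IFNγ, a cytokine of the immune response) for 24 h as the labels give it (the study's text also gives a longer time), so that the 4 groups held 2 libraries each. Genotype was compared over 2 clones against 2, where an exact two-sided permutation test cannot give a p below 0.33, and IFNγ over 4 libraries against 4, where the smallest p is 0.029. The labelled tissue was checked at promoters. RUNX2, SP7 and COL1A1, which mark osteoblasts, had a promoter peak in all 8 libraries, SPARC in 5, ALPL in 4, BGLAP in 2, and COL1A2 and IBSP in none. Of the markers of other lineages, PTPRC, CD3E and ALB had a promoter peak in 0 libraries and CDX2 in 7.

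Sites far from genes lie in different kinds of sequence. On chromosome arms many are distal regulatory elements, where transcription factors such as AP-1 (the FOS and JUN dimers) and CTCF (the insulator protein) hold nucleosomes away. Around centromeres they lie in satellite DNA, long tandem repeats that pack into heterochromatin. Alpha satellite repeats a single unit head to tail and carries the CENP-B box, the binding site of the centromere protein CENP-B. Other pericentromeric satellites are built from a 5 bp unit, GGAAT. A short read from such a repeat can match several copies, and repeats next to an assembly gap are often only partly assembled.

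The sequences that carry the results are 300 bases around the summit of the highest peak, from the plus strand of the hg38 assembly. In the first 3, which are the strongest site and a pair of sites with a peak in every KO library and in no WT library, capitals mark each GGAAT unit. In the next 2, which are the highest-ranking sites inside a centromeric satellite block, capitals mark the CENP-B box. In the site in CDH4, a gene on an arm of chromosome 20, they mark the CTCF core motif. The first 5 show the repeats that make up sites near gaps and centromeres, and the last is an arm site in unique sequence for contrast. By position the strongest site also counts as an arm site, since the nearest satellite block lies 10057780 bp away.
Strongest site, chr16:46387782-46388081: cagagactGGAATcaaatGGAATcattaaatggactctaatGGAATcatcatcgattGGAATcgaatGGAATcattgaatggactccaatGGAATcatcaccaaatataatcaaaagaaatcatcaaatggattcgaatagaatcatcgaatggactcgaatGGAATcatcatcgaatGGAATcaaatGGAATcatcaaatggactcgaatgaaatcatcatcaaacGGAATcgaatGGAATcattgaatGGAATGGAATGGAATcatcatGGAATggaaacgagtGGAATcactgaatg
KO-only site on chromosome 10, chr10:42078866-42079165: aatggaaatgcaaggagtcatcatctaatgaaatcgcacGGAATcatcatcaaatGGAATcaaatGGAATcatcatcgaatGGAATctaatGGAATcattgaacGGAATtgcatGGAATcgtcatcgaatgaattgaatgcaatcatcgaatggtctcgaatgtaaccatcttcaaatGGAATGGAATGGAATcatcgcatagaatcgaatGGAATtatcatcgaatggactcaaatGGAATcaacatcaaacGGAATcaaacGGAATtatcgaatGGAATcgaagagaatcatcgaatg
KO-only site on chromosome 16, chr16:34587081-34587380: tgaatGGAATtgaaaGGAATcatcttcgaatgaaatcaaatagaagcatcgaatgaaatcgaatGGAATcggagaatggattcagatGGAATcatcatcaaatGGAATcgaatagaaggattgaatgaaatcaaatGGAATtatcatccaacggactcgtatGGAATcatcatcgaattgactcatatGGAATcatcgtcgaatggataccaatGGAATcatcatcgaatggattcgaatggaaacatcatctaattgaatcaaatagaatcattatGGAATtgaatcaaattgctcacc
Satellite site on chromosome 17, chr17:25920052-25920351: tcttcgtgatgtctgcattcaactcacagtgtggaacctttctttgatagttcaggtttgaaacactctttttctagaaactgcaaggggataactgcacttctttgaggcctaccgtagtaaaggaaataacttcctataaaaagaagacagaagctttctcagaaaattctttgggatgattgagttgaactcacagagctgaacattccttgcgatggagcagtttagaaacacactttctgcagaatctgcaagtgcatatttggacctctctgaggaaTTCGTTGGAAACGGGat
Second satellite site on chromosome 17, chr17:26619900-26620199: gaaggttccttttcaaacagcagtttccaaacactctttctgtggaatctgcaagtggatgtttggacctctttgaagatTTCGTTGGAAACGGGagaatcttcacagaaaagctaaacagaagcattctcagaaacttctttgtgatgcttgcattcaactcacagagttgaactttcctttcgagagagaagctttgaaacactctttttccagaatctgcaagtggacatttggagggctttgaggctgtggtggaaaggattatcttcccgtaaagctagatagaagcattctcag
WT-only site in CDH4, chr20:61896237-61896536: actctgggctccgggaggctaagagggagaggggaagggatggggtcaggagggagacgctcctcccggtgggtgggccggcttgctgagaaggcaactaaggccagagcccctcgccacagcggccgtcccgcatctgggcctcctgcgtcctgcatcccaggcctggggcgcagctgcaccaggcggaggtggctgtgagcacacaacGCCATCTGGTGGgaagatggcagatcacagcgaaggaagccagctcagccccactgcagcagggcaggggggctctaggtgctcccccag
The strongest site held 16 GGAAT units in its 300 bases, the KO-only site on chromosome 10 held 15 and that on chromosome 16 held 10. The last of these also matched the AP-1 letters at 3 places. Both windows of chromosome 17 held 1 CENP-B box. The site in CDH4 held 1 CTCF core.

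The library of KO_D2 after IFNγ had the fewest satellite sites. It held a peak at 53 of the 416 sites in or near satellite blocks, whereas the untreated library of the same clone held 247 and the other 6 libraries held between 193 and 329. Comparisons of groups that rest on this library are given with and without it. For number, shares, strength and patterns, leaving it out meant choosing sites anew, with a peak in some but not all remaining lists. This gave 1245 sites and dropped the 78 that lacked a peak in this library alone. The GGAAT-array values and the changes within clones keep the same sites. The lists held between 16730 and 37533 peaks, and the lowest local background of a library ranged from 0.621 to 1.08 reads, so that the weakest peak at a variable distal site rested on 5 or 6 reads at its summit. These sites were weak in all lists. Their median place in the ranking of a list by p was between the 11.9th and the 34.4th percentile, and their median fold enrichment was 6.17 to 7.21 against 9.22 to 14.5 for the whole list.

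The sites differed in how often they were seen. Of the 1422 sites, 489 had a peak in 2 lists, 320 in 3, 212 in 4, 152 in 5, 121 in 6 and 128 in 7. Just outside the rule, 1598 distal regions had a peak in 1 list and 142 in all 8. The closest sites inside the distance limit lay 50007, 50036 and 50053 bp from a TSS, and the closest outside lay 49872, 49878 and 49896 bp away. The longest sites kept were 1509, 1323 and 1291 bp long, and 2 regions of 2484 and 8863 bp were left out for their length.

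The sites crowded around centromeres. Satellite blocks were found in the assembly as stretches that resemble themselves at a spacing close to the alpha-satellite unit, which gave 42 blocks covering 67.7 Mb. Of the 1422 sites, 252 lay in a block and 164 within 2 Mb of one, together 29.3%. The sequence that the distance limit leaves available, 604.8 Mb of 2911 Mb, was 14.2% satellite blocks and their 2 Mb flanks, so that the sites were denser there: 4.58 per Mb in blocks and 5.31 per Mb within 2 Mb, against 1.94 per Mb on the arms. Among all 52105 regions 4.60% lay in or within 2 Mb of a block, and among the 11350 variable sites 1 to 50 kb from a TSS 3.24% did. Counting only the block that marks each centromere, an alternative added after seeing the data, gave 25.5% for the variable distal sites.

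The satellite share was larger among sites seen in more lists. It was 15.0% of distal regions in 1 list, 19.0% in 2, 21.9% in 3, 25.9% in 4, 29.6% in 5, 55.4% in 6 and 67.2% in 7, and 53.5% of the 142 distal regions in all 8 lists. The share at 7 lists rests largely on the library of KO_D2 after IFNγ. Of the 128 sites in 7 lists, 78 lacked a peak in that library alone, and of these 31 were in blocks, 38 within 2 Mb of one and 9 on the arms.

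**Figure D1:**
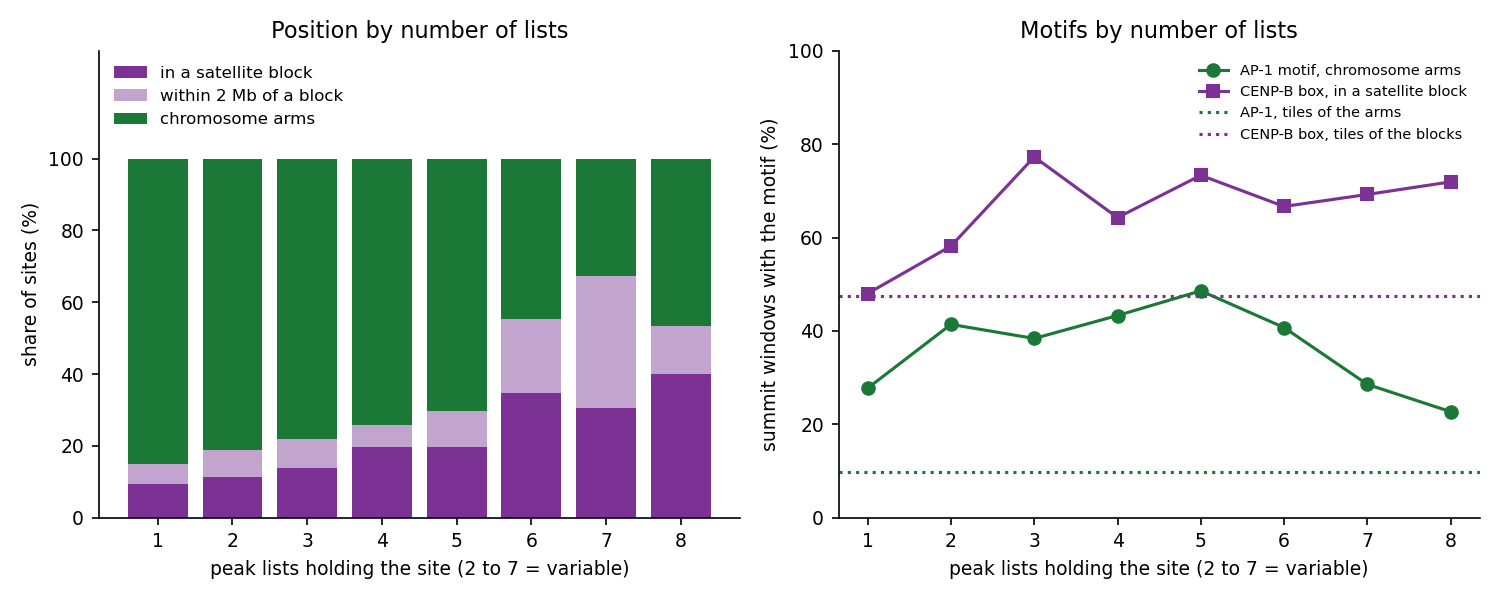
Left, the share in percent of distal sites in satellite blocks, within 2 Mb of a block and on chromosome arms by the number of peak lists (1 to 8) holding them; right, the percentage of summit windows with the AP-1 motif (arms) or the CENP-B box (blocks), with dotted lines for tiles of the same sequence without regard to peaks. The satellite share goes from 15.0% in 1 list to 67.2% in 7, and the AP-1 share on the arms is 48.6% in 5 lists and 22.7% in 8.

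Chromosome 18 held the most sites. It had 144, of which 124 lay in its centromeric block, at 22.9 per Mb of block sequence against 4.58 over all blocks, this one included. Only 17 sites lay on its arms, or 1.02 per Mb. By library the block of chromosome 18 had a peak at 71 sites in WT_4, 38 in WT_5, 107 in KO_C5 and 85 in KO_D2 untreated, and at 89, 60, 100 and 4 after IFNγ. The KO_D2 library after IFNγ was thus far under the other 7, which ranged from 38 to 107.

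The called blocks of other chromosomes held far fewer sites. The block of chromosome 7 had 26, those of chromosomes 9 and 13 had 17 each and that of chromosome 2 had 16, while the blocks of chromosomes 3, 14, 21 and X had 0 over 1.04, 2.12, 2.54 and 4.26 Mb of available block sequence. Chromosome 12 had 0 sites in its blocks but 57 within 2 Mb of them, chromosome 1 had 29 there and chromosome 10 had 27. Chromosomes 3, 14, 21 and X had 11, 0, 1 and 1 there. The flanking sites were largely of the same kind of repeat, since 52.4% of the 164 held a CENP-B box, so the edges of the blocks as called here are not the edges of the satellite. Block counts alone therefore do not rank the centromeres.

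**Figure D2:**
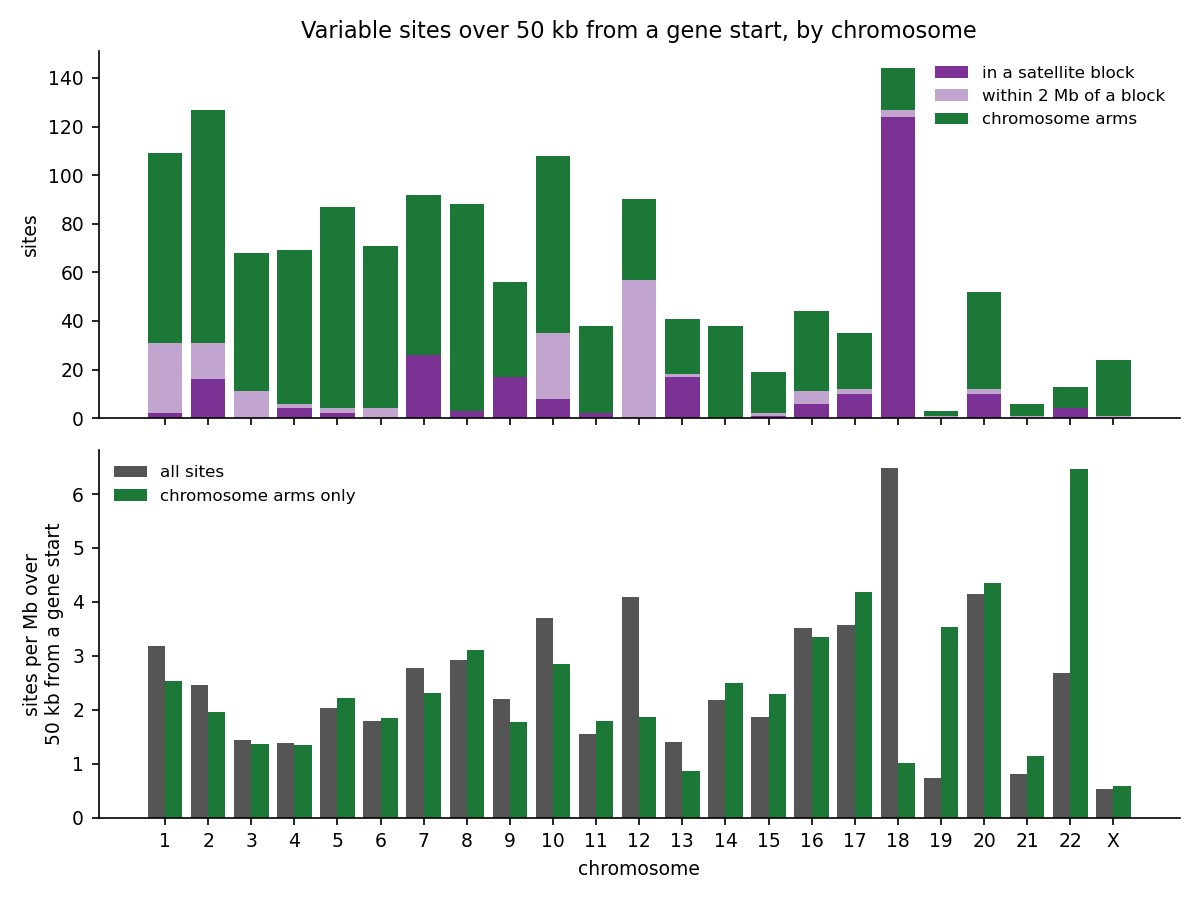
Number of variable distal sites on each chromosome by position (top) and their number per Mb of sequence over 50 kb from a TSS (bottom, all sites and chromosome arms). Chromosome 18 stands out with 144 sites, 124 of them in its satellite block, while its arms have 1.02 sites per Mb.

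The longest runs of neighbouring sites were satellite runs. Sites less than 100 kb from the next formed 207 chains of 2 or more, holding 710 sites. Of the sites in blocks 81.7% were in such a chain, of those within 2 Mb 75% and of those on the arms 37.9%. The longest chain, chr18:16365937-17021081, held 24 sites, of which 21 had a CENP-B box. The next, chr12:35206329-35805510, held 22 sites with 16 boxes, and the third, chr18:19895340-20534478, held 21 sites with 15 boxes. The 3 chains lay between genes, the first and the second nearest to pseudogenes or unnamed genes and the third to ROCK1, which encodes a kinase of the actin cytoskeleton. In KO_D2 after IFNγ 0 sites of any of these 3 chains had a peak, whereas in KO_C5 untreated 21, 21 and 17 had one.

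Sites were also crowded near assembly gaps, where GGAAT arrays made up the largest group. Of the 1422 sites, 79 (5.56%) lay within 100 kb of a gap, against 1.28% of all regions and 2.67% of the available sequence. Of these 79, 35 were GGAAT arrays, with at least 8 units on 1 strand of the summit window, 12 held a CENP-B box and 32 neither. Every one of the 35 GGAAT-array sites lay within 100 kb of a gap. Without them 44 of 1387 sites, or 3.17%, did. The array sites lay on chromosomes 16 (11), 1 (10), 10 (7), 2 (5), 9 (1) and 20 (1). No site was within 100 kb of a gap at a chromosome end, and 15 lay within 1 Mb of one. Arrays and satellite blocks overlap only in part. Of the 35 array sites 14 were in a block, since a 5 bp repeat also resembles itself at the spacing used to find blocks, 6 were within 2 Mb of a block and 15 were further away.

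The GGAAT-array sites had a peak in more of the KO libraries, except KO_D2 after IFNγ. Of the 35, untreated WT_4 and WT_5 had a peak at 9 and 6, and KO_C5 and KO_D2 at 34 and 23. After IFNγ the numbers were 15 and 13 in WT and 28 and 12 in KO. The ranges overlapped only through KO_D2 after IFNγ, which was below both WT libraries with IFNγ. The other 3 KO libraries had 23 to 34 against 6 to 15 in WT. Averaged over the libraries of a clone, 10.8 ± 1.77 sites (SD, n = 2 clones) had a peak in WT and 24.3 ± 9.55 in KO, or 27 ± 5.66 in KO without KO_D2 after IFNγ. No test is given, because the sites were chosen on presence in these lists. Of the 35, 24 had a peak in more KO than WT libraries and 5 in more WT than KO libraries. Of the other 1387 sites 26.5% and 37.4% did. These counts use the presence that chose the sites, and 34 of the 35 had a peak in untreated KO_C5. They are description only, and neighbouring arrays are not separate replicates. Over all 122 GGAAT-array regions, in any number of lists, KO_C5 had the most in both conditions. Of these regions 61 had a peak in 1 list only, and for 43 of them that list was untreated KO_C5. Over the same 122 regions KO_D2 was above all WT libraries untreated. After IFNγ its 32 were below the 40 of WT_4 and the 34 of WT_5 with IFNγ. The 35 arrays were singled out after their values were seen.

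Strength was also read at GGAAT arrays that are no variable sites, chosen for a peak in every list and given as a description. In the 16 distal GGAAT-array regions with a peak in all 8 lists, median fold enrichment was 14.8 and 10.0 in untreated WT_4 and WT_5 and 36.3 and 22.7 in untreated KO_C5 and KO_D2. After IFNγ it was 17.7 and 11.8 in WT and 29.7 and 11.6 in KO. The untreated groups did not overlap and the IFNγ groups did, through KO_D2, which was below both WT clones there. On the log2 scale the WT clones averaged 3.73 ± 0.40 and the KO clones 4.53 ± 0.72 (SD, n = 2 clones, difference -0.80). Without KO_D2 after IFNγ the KO mean was 4.77 and the difference -1.04. The order did not hold for the place in the list. By the ranking on p these regions stood at the 80.3rd, 84.5th, 88.2nd and 73.9th percentile in untreated WT_4, WT_5, KO_C5 and KO_D2, with a WT mean of 85.7 and a KO mean of 74.3 over both treatments, or 79.7 in KO without KO_D2 after IFNγ. The median pileup at the summit was 117 and 120.5 in untreated WT_4 and WT_5, 130 and 73.5 in untreated KO_C5 and KO_D2, and 114, 108.5, 116.5 and 51 after IFNγ. Fold enrichment divides the pileup by the local background, with 1 added to each, and the pileups were ordered otherwise than the folds. In raw pileup KO_C5 was above both WT clones in both conditions, by far less than in fold, and KO_D2 was below them. Raw pileups are not scaled for depth, so this order is not one of strength. The lowest background was 0.656, 1.02, 0.719 and 0.626 reads in untreated WT_4, WT_5, KO_C5 and KO_D2. After IFNγ it was 0.621, 0.770, 0.906 and 1.08 reads. The part of depth and local background in the peak calls at the 35 variable array sites was not tested.

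**Figure D3:**
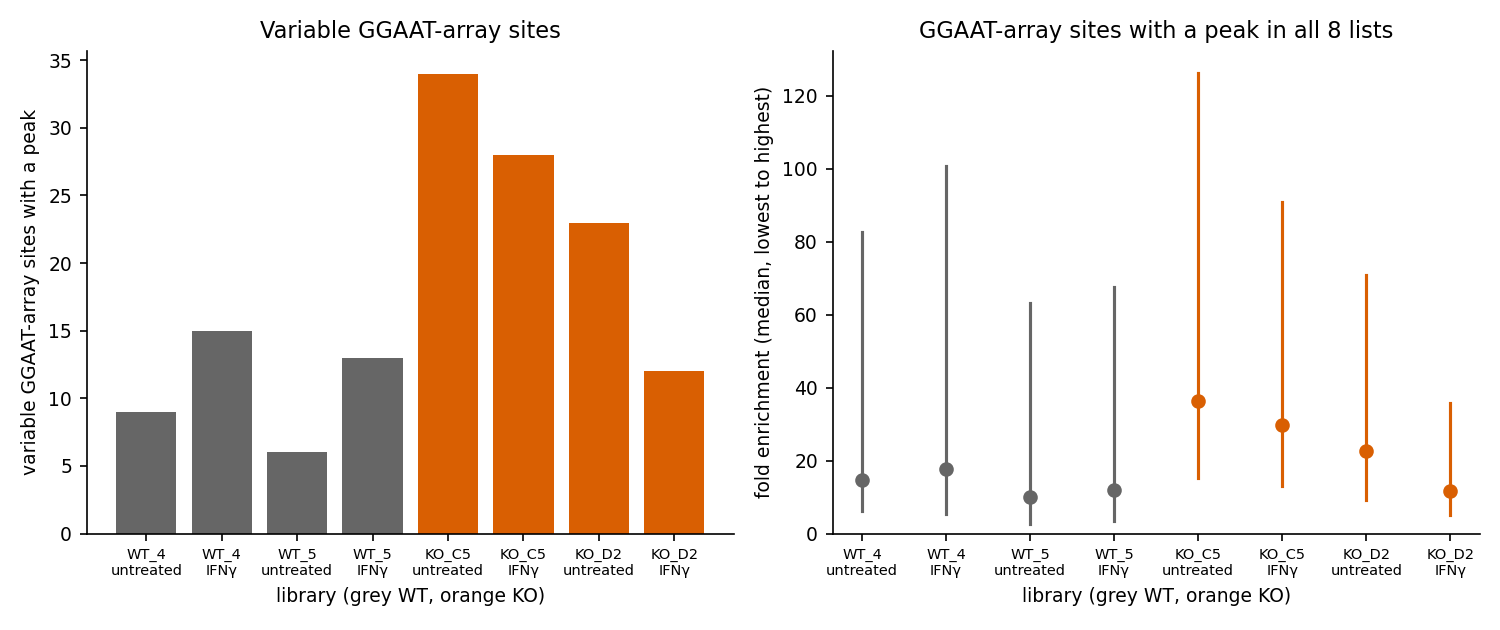
Left, the number of the 35 variable GGAAT-array sites with a peak in each library; right, the fold enrichment (median, with a line from the lowest to the highest value) at the 16 GGAAT-array regions with a peak in all 8 lists. KO_C5 has 34 and 28 sites and the medians 36.3 and 29.7, above all WT libraries, while KO_D2 after IFNγ has 12 sites and a median of 11.6. The values of KO_D2 after IFNγ lie below both WT libraries with IFNγ (15 and 13 sites, medians 17.7 and 11.8) and above the lowest untreated WT library.

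The strongest variable distal sites were repeats next to gaps or in centromeres. The 5 with the highest mean percentile of p, over the lists holding them, were 3 sites of chromosome 16 and a pair in the centromeric block of chromosome 17. The first, chr16:46387781-46388090, lay 7098 bp from a gap and had fold enrichments of 74.6 and 61.9 in KO_C5, 36.7 and 20.9 in KO_D2, 12.4 in WT_4 after IFNγ and 10.7 in WT_5 after IFNγ, and no peak in either untreated WT library. Its KO folds were all above its WT folds, while its summit pileup reached 175 reads in WT_5 after IFNγ, against 203 and 202 reads in KO_C5 and 86 and 70 reads in KO_D2. The second, chr17:25920049-25920369, had values of 60.2 and 41.0 in KO_C5, 46.8 and 19.5 in KO_D2, 5.07 and 8.36 in WT_4 (untreated and IFNγ each) and 5.00 in WT_5 after IFNγ. Here too the KO folds were higher, although the WT summits were as tall, at 162 to 228 reads against 107 to 180 reads in KO. The reads at both sites are not scaled for depth. The others were chr17:26619658-26620169, with a peak in 3 KO libraries only, chr16:46386276-46386579, with a peak in the KO_C5 libraries only (38.2 and 37.7), and chr16:46398626-46399097, at 59.4 and 56.1 in KO_C5, 26.4 and 18.3 in KO_D2 and 8.76 in WT_4 after IFNγ. All 5 lay between genes, in sequence of which at most 24.4% of 31-base words occurred once in the assembly.

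Many sites lay inside a centromeric block, and the 5 of them with the highest mean percentile were those 2 of chromosome 17 and 3 more. The site at chr4:49708296-49708989, 195 bp from a gap, had fold enrichments of 16.8 in untreated KO_C5 and 6.63 in WT_4 after IFNγ. The site chr2:94266758-94267013 had a peak in WT_5 only, at 10.2 untreated and 10.6 after IFNγ. The site chr22:11617924-11618443 had values of 9.97 and 13.4 in WT_5, 6.79 in KO_C5 after IFNγ and 6.95 in KO_D2 after IFNγ. At these 3 sites WT libraries were among those with a peak.

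The 1006 sites on chromosome arms were mostly of another kind. They also included the 15 GGAAT-array sites away from blocks. In the chain chr1:143184948-143270734, the median share of 31-base words that occurred once in the assembly was 0% over its 10 arm sites. Their median width was 362 bp against 470.5 bp for the 416 satellite sites, their median distance to a TSS was 74.4 kb against 1061 kb, and 388 (38.6%) lay in an intron and 20 touched an exon, whereas of the 416 satellite sites 3 lay in an intron. Summit windows, which reach 150 bp to each side of the highest summit, had a median GC content of 50.2% on the arms and 39.5% in the satellite sites, where tiles of the available arm sequence had 37.2% and tiles of block sequence 38.9%. In the arm sites all 31-base words of the window occurred once in the assembly for 65.9% of sites, and in the satellite sites for 5.05%. None of the words did in 56.3% of the satellite sites and 0.795% of the arm sites. Genes that held several arm sites were ZMIZ1 (6), a transcriptional coregulator, CAMTA1 (5), a transcription activator, SORCS2 (5), a sorting receptor, PARD3 (4), a cell polarity protein, and RUNX1 (3), a Runt transcription factor. They were picked after the counts were seen.

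The arm sites carried the AP-1 motif often. TGANTCA, which reads the same on both strands, was in 414 of the 1006 arm windows (41.2%), in 9.9% of arm tiles and in 19.7% of all 52105 regions. Variable sites 1 to 50 kb from a TSS had it in 36.0%. The core used for CTCF, CCA, 2 bases, AG, 2 bases and GGC on either strand, was in 5.27% of arm sites, 0.523% of arm tiles and 10.0% of the variable sites nearer to a TSS. The interferon response element (GAAA, 2 bases and GAAA, on either strand) was in 6.56% of arm sites and 6.02% of arm tiles. The telomeric hexamer TTAGGG, which ZBTB48 binds, was in 6.76% of arm sites, 10.6% of arm tiles and 6.84% of all regions. The hexamer GTGAGT, a control with no telomeric repeat, was in 21.8% of arm sites and 11.5% of arm tiles. By library, the AP-1 share of the arm sites with a peak was 32.0% and 39.9% in WT_4 (untreated and IFNγ), 41.4% and 36.5% in WT_5, 47.7% and 39.6% in KO_C5 and 39.0% and 49.9% in KO_D2, and the ranges of genotypes and of treatments overlapped.

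The satellite sites were alpha satellite in the main. The CENP-B box, searched on both strands as TTCG, 4 bases, A, 2 bases and CGGG, was in 67.5% of the 252 block sites, 52.4% of the 164 flanking sites and 0 of the 1006 arm sites. In tiles of the same sequence it was in 47.6%, 38.7% and 0.0034%, and in all regions in 0.869%. AP-1 was in 5.95% of block sites and 3.99% of block tiles. TTAGGG was in 0 of the 252 block sites and 2.36% of block tiles.

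Libraries differed in how many sites of each kind had a peak. Of the 1006 arm sites 18.0% had a peak in WT_4, 63.9% in WT_5, 35.2% in KO_C5 and 14% in KO_D2 untreated, and 17.2%, 75.4%, 62.7% and 43.8% after IFNγ. WT_5 was the highest in both conditions. Satellite sites, in or within 2 Mb of a block, numbered 210, 193, 329 and 247 untreated and 264, 237, 312 and 53 after IFNγ. KO_C5 was the highest in both conditions, and WT_5 was low here while it was the highest on the arms. The longest lists were those of WT_5 after IFNγ (37533 peaks), WT_5 untreated (29567) and KO_C5 after IFNγ (27457), which were also the 3 with the most arm sites. All lists were also cut to the length of the shortest, given in the closing section, but only for the sites of all classes together. The part of list length in the separate arm and satellite counts was not tested.

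**Figure D4:**
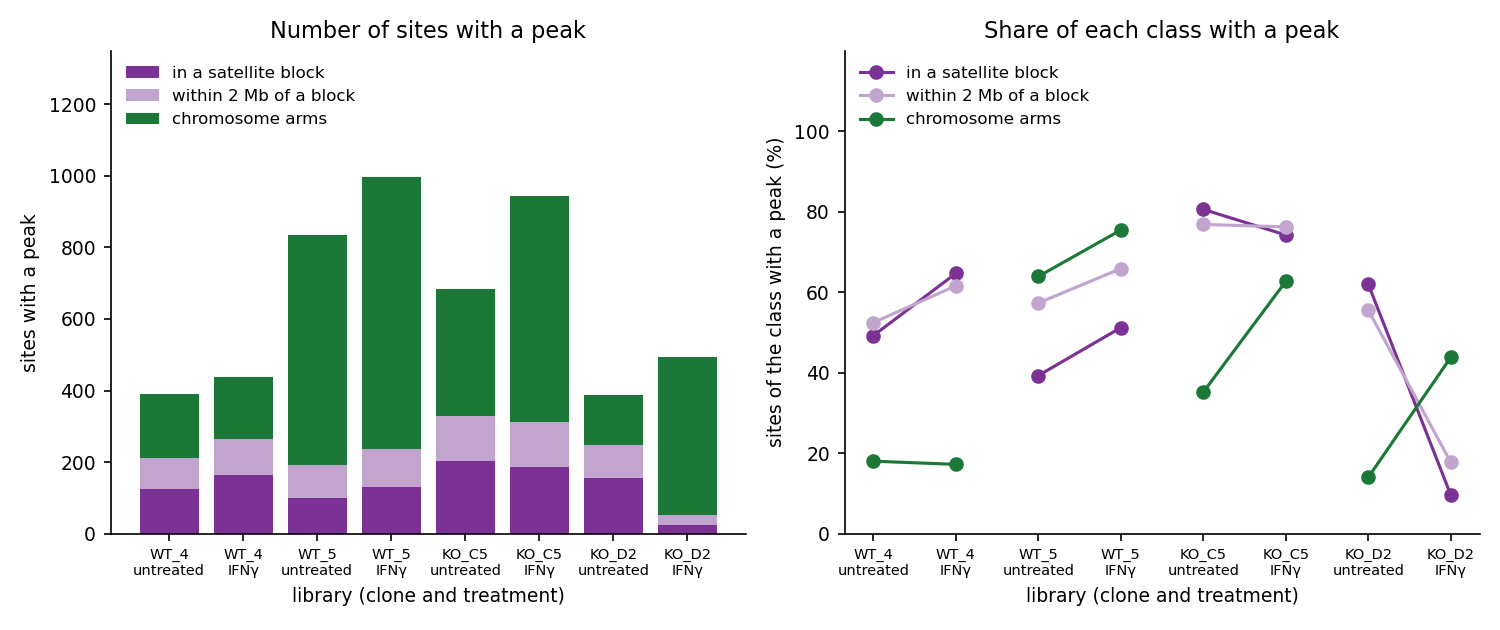
Number of variable distal sites with a peak in each library by position (left) and the percentage of each position class that had a peak (right, with lines joining the untreated and the IFNγ library of a clone). WT_5 sees 63.9% and 75.4% of the arm sites, KO_C5 sees 80.6% and 74.2% of the block sites, and KO_D2 after IFNγ sees 9.52% of the block sites.

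The number of variable distal sites with a peak and their share of the list use the same presence as the rule, so they are described here with no test. All classes together, the libraries had 391 (WT_4), 836 (WT_5), 683 (KO_C5) and 388 (KO_D2) untreated and 437, 996, 943 and 494 after IFNγ. The WT clones averaged 665 ± 355 and the KO clones 627 ± 263 (SD, n = 2 clones). As a share of the peak list the sites made up 2.41% ± 0.491 in WT and 2.83% ± 0.945 in KO. Clones of the same genotype were further apart than the genotypes. Without KO_D2 after IFNγ the difference in number was 52.8 instead of 38.0.

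With IFNγ every clone had more of the sites than without, but the mean difference turned from 143 to -60.8 sites when lists were cut to the length of the shortest. In the full lists the ratio of IFNγ to untreated was 1.12 in WT_4, 1.19 in WT_5, 1.38 in KO_C5 and 1.27 in KO_D2, and the mean was 718 ± 293 against 575 ± 223 (SD, n = 4 libraries each). The peak lists changed in length as well, by ratios of 0.871, 1.27, 1.43 and 1.48 in the same order, and as a share of the list the sites were 2.60% ± 0.619 with IFNγ and 2.63% ± 0.750 without. Without KO_D2 after IFNγ these differences were 207 sites and 0.208 percentage points. The clones differed in which sites were added. Arm sites changed by ratios of 0.956 in WT_4, 1.18 in WT_5, 1.78 in KO_C5 and 3.13 in KO_D2, and satellite sites by 1.26, 1.23, 0.948 and 0.215. The log2 change of arm sites less that of satellite sites was -0.40 in WT_4, -0.06 in WT_5, 0.91 in KO_C5 and 3.87 in KO_D2, with a mean of 1.08 ± 1.94 (SD, n = 4 clones). Without KO_D2 the mean was 0.15 ± 0.68 (SD, n = 3 clones), so it rests on that clone.

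The same clone did not always keep its sites. Of the sites with a peak in untreated cells, 81.1% had one after IFNγ in WT_5, 71.2% in KO_C5, 59.3% in WT_4 and 35.3% in KO_D2. As a share of the IFNγ sites the same overlaps were 68.1%, 51.5%, 53.1% and 27.7%. On the arms 75.9% of the untreated KO_D2 sites were kept, and of its satellite sites 12.1%, so that the loss in this clone lay in the satellites. In the other 3 clones 75.6% to 80.9% of the untreated satellite sites were kept.

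The satellite share of the sites with a peak varied between libraries more than between conditions. It was 53.7% in WT_4, 23.1% in WT_5, 48.2% in KO_C5 and 63.7% in KO_D2 untreated, and 60.4%, 23.8%, 33.1% and 10.7% after IFNγ. WT clones averaged 40.3% ± 23.8 and KO clones 38.9% ± 2.43 (SD, n = 2 clones, exact permutation p = 1), and without KO_D2 after IFNγ KO was the higher by 12.5 percentage points (exact permutation p = 0.667). Libraries with IFNγ averaged 32.0% ± 21.0 and untreated ones 47.2% ± 17.3 (SD, n = 4 each, exact permutation p = 0.314), and without that library the difference was -6.06 percentage points in place of -15.2. The share within 100 kb of a gap was 5.99% ± 2.95 in WT and 7.27% ± 0.241 in KO clones (exact permutation p = 1) and 5.54% ± 2.05 with and 7.72% ± 3.05 without IFNγ (exact permutation p = 0.343), and without KO_D2 after IFNγ the differences were -3.33 (WT minus KO) and -1.72 (IFNγ minus untreated). Both shares are taken over sites chosen for their presence in these lists, so the p-values here are description only. For scale, the satellite share of all peaks of a list was 3.69% to 5.76%.

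Summit strength was taken as the summit pileup over the local background, both solved from the fold enrichment and p that the peak caller wrote. Its median over the sites with a peak was 12.2 in WT_4, 10.4 in WT_5, 13.9 in KO_C5 and 13.1 in KO_D2 untreated, and 12.9, 13.0, 11.0 and 9.0 after IFNγ. The WT clones averaged 12.1 ± 0.613 and the KO clones 11.8 ± 0.992 (SD, n = 2 clones, exact permutation p = 0.667), and the IFNγ libraries 11.5 ± 1.88 against 12.4 ± 1.54 untreated (SD, n = 4 each, exact permutation p = 0.457). Neither difference was larger than the spread, and without KO_D2 after IFNγ they were -0.560 and -0.186. Within clones strength was higher with IFNγ in both WT clones (0.669 and 2.64) and lower in both KO clones (-2.88 and -4.15). This comparison was not planned. A full separation of 2 clones against 2 always gives the smallest exact permutation p, 0.33, so no test is read from it. Without KO_D2 the mean change of the WT clones was 4.53 above that of KO_C5.

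Arm and block sites also differed in the background beneath them. In satellite blocks the median local background equalled the lowest background of the library in 7 libraries, and between 77.3% and 90.4% of the peaks there sat on that lowest level. In KO_D2 after IFNγ the median was 1.18 times the lowest and 45.8% of the peaks sat on it. On the arms the median local background was 1.37 to 2.31 times the lowest, with 10.2% to 31.3% of the peaks at that level. The summits in blocks were also low, at a median of 8 to 9 reads in 6 libraries, 12 in KO_C5 after IFNγ and 13.5 in KO_D2 after IFNγ, against 11 to 22 reads on the arms. Sites within 2 Mb of a block were like the block sites in 7 libraries, with a median background equal to the lowest, but in KO_D2 after IFNγ their median was 2.07 times the lowest, within the range of the arms.

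**Figure D5:**
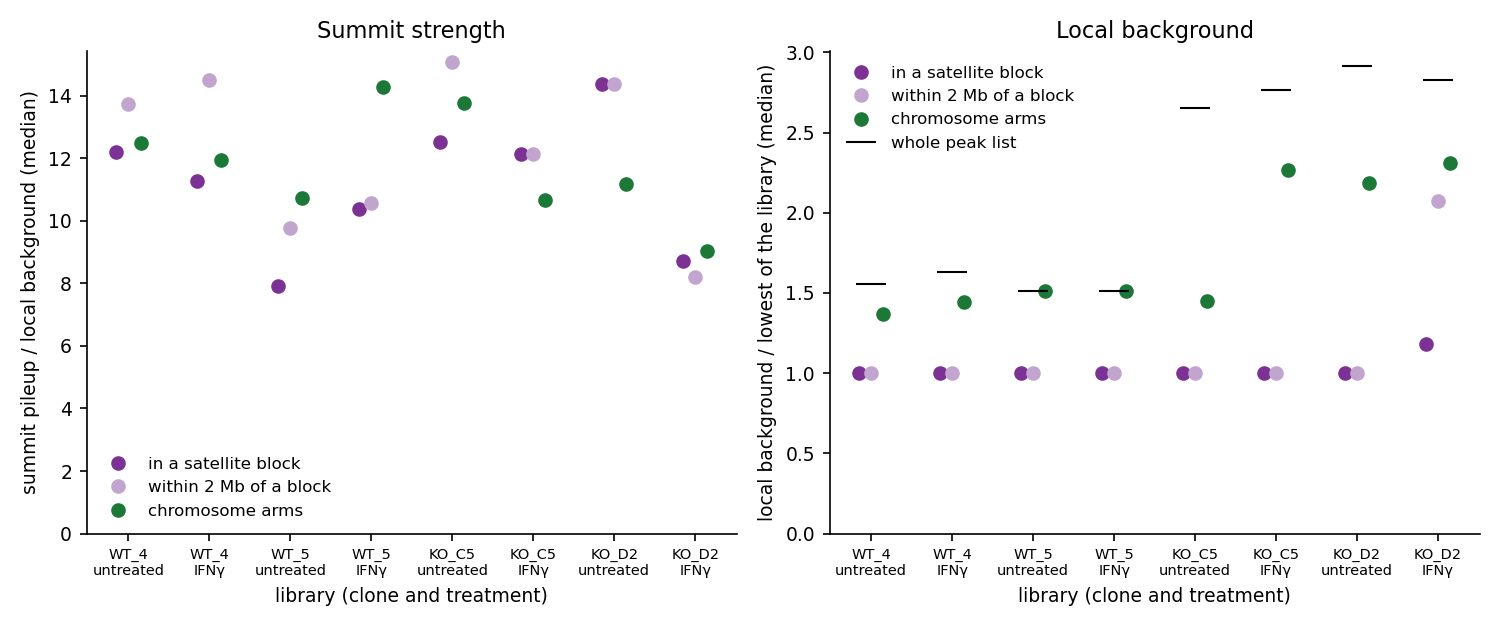
Median summit pileup over local background (left) and median local background relative to the lowest of the library (right) at variable distal sites by position in each library, with the whole peak list as a dash in the right plot. In blocks the background equals the lowest of the library in 7 of 8 libraries, and on the arms it is 1.37 to 2.31 times that level.

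Few of the sites followed genotype or treatment exactly. A peak in all 4 WT libraries and no KO library was found at 4 sites, where 0.528% of the 20278 regions in 2 to 7 lists had this pattern. A peak in all 4 KO libraries and no WT library was found at 5 sites, where 0.0296% of those regions had it. Only 6 regions of the series were KO-only, so 5 of the 6 were variable distal sites. IFNγ-gained sites (all 4 IFNγ libraries, no untreated one) numbered 4, with 0.325% of regions, and 1 site was IFNγ-lost, with 0.00493%. Both libraries of KO_C5 and of WT_5, and no other, had a peak at 19 sites, which is 1.34% of the sites and near the 1.27% of regions with this pattern. For KO_D2 with WT_5 there were 4 sites (0.197% of regions), for KO_C5 with WT_4 3 (0.0542% of regions) and for KO_D2 with WT_4 0 (0.0641% of regions). The most frequent pattern on the arms was a peak in both WT_5 libraries and KO_C5 after IFNγ, at 98 sites, and the most frequent in blocks was a peak in all but KO_D2 after IFNγ, at 31 sites.

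The KO-only sites were GGAAT arrays in 4 of 5 cases. The site chr16:34586691-34587516, 5725 bp from a gap, had fold enrichments of 29.4 and 30.3 in KO_C5 (untreated and IFNγ) and 12.1 and 4.62 in KO_D2. The site chr10:42078423-42079194 had 18.8 and 15.7 in KO_C5 and 12.9 and 9.62 in KO_D2. KO_C5 was above KO_D2 at both. The other arrays were chr10:42066691-42066951, 425 bp from a gap, at 7.70 to 21.5, and chr20:31068052-31068888, at 6.36 to 16.7. The last site, chr8:88939943-88940308, lay on an arm in unique sequence, 126799 bp from the nearest TSS, and had 16.9 and 11.0 in KO_C5 and 7.38 and 5.29 in KO_D2. Without KO_D2 after IFNγ 16 sites were KO-only, without untreated KO_C5 8, without untreated KO_D2 10, and without WT_4 after IFNγ 9. With lists cut to equal length there were 2.

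The WT-only sites were 3 arm sites and 1 satellite site. The site chr17:36808107-36808694, between genes in a window of 71.1% GC, had fold enrichments of 13.4 and 8.99 in WT_4 and 7.60 and 5.19 in WT_5. The site chr20:61896279-61896566, in an intron of CDH4, which encodes the cell adhesion protein R-cadherin, had 9.65 and 7.46 in WT_4 and 4.85 and 7.41 in WT_5. The site chr10:34124714-34125238, in an intron of PARD3, had values of 3.94 to 7.03 and an AP-1 motif. The site chr20:27762293-27762763, in a centromeric block, had values of 3.95 to 6.22 and a CENP-B box. All 4 were weak, with 6 to 22 reads at the summit. The number was 8 without untreated WT_4, 9 without untreated WT_5 and 7 without WT_4 after IFNγ.

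The IFNγ-gained sites were weak as well. The site chr6:92978259-92978624, between genes, had fold enrichments of 7.96 in WT_4, 7.06 in WT_5, 7.60 in KO_C5 and 7.33 in KO_D2 after IFNγ, so that the clones were close to each other. The site chr4:26220762-26221457 lay in an intron of RBPJ, the transcription factor of the Notch pathway, at 3.70 to 7.60, and chr16:36101420-36102691 in a centromeric block at 3.98 to 6.54. The number was 33 without WT_4 after IFNγ, 14 without untreated WT_5, 8 without KO_D2 after IFNγ and 7 without untreated KO_C5. The IFNγ-lost site, chr6:81124190-81124530, lay 410383 bp from a TSS and had untreated values of 6.04 in WT_4, 4.94 in WT_5, 6.40 in KO_C5 and 5.53 in KO_D2, on 8 to 10 reads. This number was 4 without KO_C5 after IFNγ, 3 without untreated KO_D2 and 2 without untreated WT_5 or either WT library with IFNγ.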

How the data were processed

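FAIRE-seq was done on U2OS clones, with 8 libraries of 2 per group. The authors aligned trimmed reads to GRCh38 (bowtie2 2.2.5), dropped poorly mapped ones (samtools 1.14) and ran MACS2 2.2.7.1 on each library. Their use of input DNA in calling was not stated. The deposited lists hold the fold enrichment ratio at the summit and −log10 p and q values per peak, as deposited, with no read counts. The pileup (whole reads at the summit) and its local background were recovered by solving the caller's Poisson formula for both deposited values, where a whole-number pileup returned the deposited −log10 p within 1% at 100% of peaks.

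Sites and tests were computed with Python 3.11, numpy, pandas and scipy, and checked on simulated data. Blocks were 10 kb windows with over 50% self-identity at the satellite spacing, joined over up to 1 Mb, and gaps were runs of N of at least 1 kb. The local hg38 copy carries no repeat annotation, so repeats were read from sequence, and whether the authors' copy masked arrays was not given in the sources used here. Groups came from the labels. Clones were averaged for genotype. The clone name in the labels pairs each untreated library with an IFNγ library, and the difference in peak presence between the clones of a genotype correlated between treatments (r = 0.33 in WT and 0.13 in KO over 20278 regions). Nothing says that libraries beyond the clones are separate cultures, so p-values cover the spread between these samples. Named sites were the 5 highest by mean percentile, up to 5 per pattern, the 5 nearest a centromeric block and the 3 longest chains. The planned tests on the number of sites and their share of the list are not printed, since the rule used the same presence. Satellite share, near-gap share and strength are read at the same chosen sites, so their p-values are description only. The sites, lists and tests were chosen with earlier results of these data known. CENP-B boxes, 31-base words and GGAAT arrays were added after positions and sequences were seen. Alternatives are given in the closing section. Some markers, motifs and sites are not reported here.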

Additional observations from a re-analysis of the deposited data

Results flagged for a closer look

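4 measures changed with IFNγ in opposite directions in the WT and KO clones, and these are given as values. The flag asks for this opposite direction, and in 4 clones such a separation by itself gives an exact permutation p of 0.33. That p was thus fixed by the flag, and no test is read from it. The comparisons of these changes between genotypes were not planned. The number also uses the presence that chose the sites. The number of satellite sites with a peak changed by 54 in WT_4 and 44 in WT_5 and by -17 in KO_C5 and -194 in KO_D2. The satellite share of the sites with a peak changed by 6.70 and 0.709 percentage points in WT_4 and WT_5 and by -15.1 and -52.9 in KO_C5 and KO_D2. The share near a gap changed by 0.794 and 0.628 in WT_4 and WT_5 and by -3.38 and -6.78 in KO_C5 and KO_D2. Summit strength changed by 0.669 and 2.64 in WT_4 and WT_5 and by -2.88 and -4.15 in KO_C5 and KO_D2. The largest changes were those of KO_D2, whose IFNγ library had the fewest satellite sites. Without KO_D2 the mean of the WT clones was above KO_C5 by 66 sites, 18.8 and 4.09 percentage points and 4.53 in strength. In 28 groups of 4 libraries (by genotype or treatment, 7 measures) no value was past Dixon's critical value, that library included, and with 2 libraries a group the 4 groups of the study could not be examined so.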

How the results depend on the processing

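All tests, those not printed included, were read at sites chosen for presence in these lists, so their p-values are description only and no conclusion is drawn from them. None was at or under 0.05 in the main analysis or in any of the 24 alternatives (lowest exact permutation p = 0.0857). Genotype tests cannot go under 0.33, and the test with the clone as block cannot reach 0.05, so for both this outcome was fixed beforehand. Of 320 values 36 turned in direction. Many of the others changed in size, as the ranges show. With lists cut to the shortest there were 614 sites, 10.1% of them near a gap, and the differences were -59.3 (number, WT minus KO), -60.8 (number, IFNγ minus untreated), 2.05 (strength, IFNγ) and -2.69 (satellite share, WT minus KO), with 1 WT-only, 2 KO-only, 1 IFNγ-gained and 0 IFNγ-lost sites. Beyond 100 kb there were 646 sites, 57.6% of them satellite, a strength difference of -0.51 (WT minus KO) and 1, 3 and 1 WT-only, KO-only and gained sites. With protein-coding TSS there were 4383 sites, differences of 1.28 (share of the list, IFNγ), -2.60 (IFNγ change in share, WT minus KO) and -0.0016 (satellite share, WT minus KO), and 8 WT-only and 14 gained sites. With 3 to 6 lists there were 805 sites and differences of -1.50 (number, WT minus KO), 0.099 (share, IFNγ) and -0.011 (IFNγ change in share). With −log10 q of at least 3 there were 2 WT-only and 2 gained sites and a share difference of 0.023 (IFNγ). With fold enrichment of at least 4 there were 2 gained and 2 lost sites. Within 1 Mb of a gap lay 25.5% of sites, with a WT minus KO difference of 0.478. Strength (WT minus KO) was -1.0 over sites in 6 or 7 lists, and over the lowest background it was -2.22, and 2.2 for IFNγ.

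Chosen after seeing the data, arm sites alone gave 0.330 (share, IFNγ) and -0.735 (IFNγ change in share, WT minus KO). Satellite sites alone gave -9.25 (number, WT minus KO), -28.3 (number, IFNγ) and -1.09 (strength, WT minus KO). Without GGAAT arrays the near-gap difference (WT minus KO) was 0.792, and 1 KO-only site was left.

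Leaving out each replicate in turn gave, for WT minus KO, -26.3 to 109.5 in number, -0.514 to -0.303 in share, -0.560 to 1.37 in strength, -12.5 to 14.9 in satellite share, -3.33 to 0.474 in near-gap share and -0.040 to 0.869 in the IFNγ change in share. For IFNγ minus untreated it gave 53.8 to 238.5, -0.299 to 0.255, -1.59 to -0.186, -25.4 to -6.06 and -3.37 to -0.961. The sites numbered 1189 to 1391, with 4 to 9 WT-only, 5 to 16 KO-only, 4 to 33 gained and 1 to 4 lost. With the clone as replicate block the IFNγ differences (-0.93 in strength, -15.2 in satellite share and -2.18 in near-gap share) had exact p-values of 0.625, 0.5 and 0.5, so no call changed. Block sites rest on a median of 8 to 13.5 reads, and the libraries were not matched in depth. The cause of the changes was not tested.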
